A study of Mus musculus with 4 samples.

Results

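The C/EBP transcription factor mRNAs were examined in RNA precipitated with an antibody against Caprin-1, which binds mRNA and takes part in stress granules, and with IgG as the background control. The genes were chosen by symbol as Cebpd, Cebpb, Cebpg and Cebpa, 4 of the 12967 gene symbols with values, because Cebpd was among the genes highest in shCerS4 over shSCR. The cell line was 4T1, derived from a BALB/c mouse mammary tumour that spreads to distant organs, and it was grown with puromycin. They stably expressed either CerS4 shRNA, directed at ceramide synthase 4, which makes ceramides (shCerS4), or SCR, the control shRNA (shSCR). The libraries were shCerS4 Caprin-1, shSCR Caprin-1, shCerS4 IgG and shSCR IgG, 1 of each, so the differences are between single libraries, without replicates, and no significance test was made. The labels name 1 shRNA per genotype and no separate clones or cultures, so an effect of the shRNA cannot be told apart from other differences between the stably expressing populations. The knockdown target Cers4 was not analysed here, so the knockdown itself was not checked.

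C/EBP proteins are basic leucine zipper factors that bind DNA as dimers with each other or with related factors. C/EBP delta, from Cebpd, is an immediate inflammatory factor that is usually low in resting cells and is induced by interleukin-6 family cytokines through STAT3, by interleukin-1 and by glucocorticoids; in the mammary gland it rises at involution. C/EBP beta, from Cebpb, is needed for ductal and alveolar growth of the mammary gland and is made as longer activating and shorter inhibitory forms from 1 mRNA. C/EBP gamma, from Cebpg, lacks a classical activation domain and acts in dimers, among them with ATF4, while C/EBP alpha, from Cebpa, drives adipocyte, liver and myeloid differentiation and holds back cell division.

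The Caprin-1 libraries held an estimated 24.7 M reads in shCerS4 and 27 M in shSCR cells, and the IgG libraries 19.7 M in shCerS4 and 19.8 M in shSCR cells. Levels are given in CPM, reads scaled to the same library total. Only symbols averaging 5 CPM or more were compared, which left 10283, among them 3 of the 4 C/EBP genes. Brackets after a log2 ratio hold its 95% interval, which reflects the number of reads alone and not the variation between cultures. The words past 2-fold mean a ratio of 2-fold or more whose interval leaves out 0. Mammary epithelial markers were present in all libraries, with 10 of 11 analysed here and summed levels of 7849 CPM in shCerS4 Caprin-1, 10272 in shSCR Caprin-1, 5267 in shCerS4 IgG and 6035 in shSCR IgG. These sums rest mostly on keratins, and single markers differed between genotypes in both directions, with log2 ratios of shCerS4 over shSCR with Caprin-1 of −1.30 for Krt8 and −0.85 for Krt18, and of 2.22 for Cldn4 and 1.06 for Cdh1. Esrp1 stood at 72.0 CPM in shCerS4 Caprin-1, against 8.99 CPM in shSCR Caprin-1. Of 12 macrophage and neutrophil markers 3 were analysed here, with summed levels of 15.9 and 16.01 CPM in the shCerS4 libraries (Caprin-1 and IgG) and 49.1 and 26.0 CPM in the shSCR libraries, nearly all from Cd68. Of 8 fibroblast markers 6 were analysed here, and their summed levels were 21.5 and 44.4 CPM in the shCerS4 libraries and 24.7 and 69.3 CPM in the shSCR libraries, most of it Pdgfra. The part of any other cell type in the results below was not tested, and in such bulk samples fewer cells of a type and less RNA per cell cannot be told apart.

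The promoters of Cebpb and Cebpg are shown because both mRNAs stood moderately higher in shCerS4 libraries. As described below, the log2 ratios of Caprin-1 over IgG of these mRNAs had opposite signs, above 0 for Cebpb and below 0 for Cebpg. RefSeq promoter entries on GRCm38.p6 matched Cebpb, Cebpg and Cebpa, and not Cebpd. The lines give the 250 bases upstream of the annotated start, 5′ to 3′ in the direction of the gene, for Cebpb chr2:167688665-167688914 (plus strand) and for Cebpg chr7:35056567-35056816 (minus strand). Capitals mark matches, on either strand, to the motifs searched. TTGCNNCAA was searched for C/EBP, but it cannot match the palindrome that C/EBP factors bind. TGATGCAA stood for a C/EBP-ATF composite. TGACGTCA stood for a full cAMP response element and TGACG for its core, which lies inside the full one. TTCNNNGAA stood for STAT and CCAAT for the box of that name. The GC box was written GGGCGG with overlaps allowed, and the TATA box TATAA.
Cebpb: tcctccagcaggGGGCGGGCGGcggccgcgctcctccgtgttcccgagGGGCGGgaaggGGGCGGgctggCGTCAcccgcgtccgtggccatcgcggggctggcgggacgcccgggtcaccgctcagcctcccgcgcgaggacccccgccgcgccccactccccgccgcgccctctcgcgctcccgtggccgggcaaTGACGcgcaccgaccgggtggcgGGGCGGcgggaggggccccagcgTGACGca
Cebpg: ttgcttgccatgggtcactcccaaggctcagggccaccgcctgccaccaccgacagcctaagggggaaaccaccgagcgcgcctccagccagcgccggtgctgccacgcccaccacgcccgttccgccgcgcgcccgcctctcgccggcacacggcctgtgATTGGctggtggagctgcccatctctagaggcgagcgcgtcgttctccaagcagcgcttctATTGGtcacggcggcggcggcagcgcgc

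The Cebpb stretch held 3 TGACG cores, starting 180, 53 and 7 bases upstream of the start, a motif found in 17.8% of the 32851 promoters of the same length. It also held 5 GGGCGG matches, of which the 2 farthest upstream overlap, and 32.7% of all promoters held at least 1. The Cebpg stretch held 2 CCAAT boxes in reverse orientation, starting 89 and 28 bases upstream, a motif found in 33.8% of promoters. Neither stretch held TTGCNNCAA (1.74% of promoters), TGATGCAA (0.791%), TGACGTCA (1.55%) or TTCNNNGAA (7.02%). The C/EBP palindrome was not searched, so its presence in these promoters was not tested. Both were GC-rich, at 81.6% for Cebpb and 70.8% for Cebpg, where the median promoter had 52.4%. A match is a description of the letters, and no binding was measured.

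Cebpd was higher in both shCerS4 libraries than in either shSCR library. It stood at 86.2 CPM in the shCerS4 Caprin-1 precipitate, against 8.46 CPM in the shSCR Caprin-1 precipitate. In the IgG precipitates it stood at 49.6 CPM in shCerS4 cells, against 4.85 CPM in shSCR cells. These levels rested on 2128, 229, 976 and 96 estimated reads in the order given. Cebpd was chosen for this difference, and the share of all compared genes that separate by genotype in this way was not counted. This also limits the like statements on Cebpb, Cebpa and Ddit3 below. The level of Cebpd in either shSCR library exceeded that of 3 reads, which was 0.111 CPM with Caprin-1 and 0.151 CPM with IgG.

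The Cebpd log2 ratio of shCerS4 over shSCR was 3.35 [3.15, 3.55] with Caprin-1, or 10.2-fold. With IgG it was 3.35 [3.05, 3.67], or again 10.2-fold. Cebpd was chosen for its shCerS4 over shSCR difference in these libraries, so both ratios are a description. Among the 10283 compared genes, ranked from the highest, Cebpd was number 27 with Caprin-1 and number 24 with IgG. The share of compared genes past 2-fold upward was 6.25% with Caprin-1 and 5.69% with IgG, and downward 4.95% and 5.34%. These were 643 genes higher and 509 lower with Caprin-1 and 585 and 549 with IgG, while trimmed-mean scaling gave 442 and 639 with Caprin-1 and 475 and 620 with IgG, and median-of-ratios scaling gave 450 and 643 with IgG. Among genes averaging 20 CPM or more, leaving out predicted genes and those with a Riken clone name, Cebpd was number 9 with Caprin-1. The gene just above it was C1s1 at 3.41, and the first gene outside the 10 highest was Myh14 at 3.15. The median log2 ratio over all compared genes was 0.15 with Caprin-1 and 0.10 with IgG, so that relative to it Cebpd stood at 3.20 and 3.24. Trimmed-mean scaling moved the median with Caprin-1 to 0.00466.

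**Figure D1:**
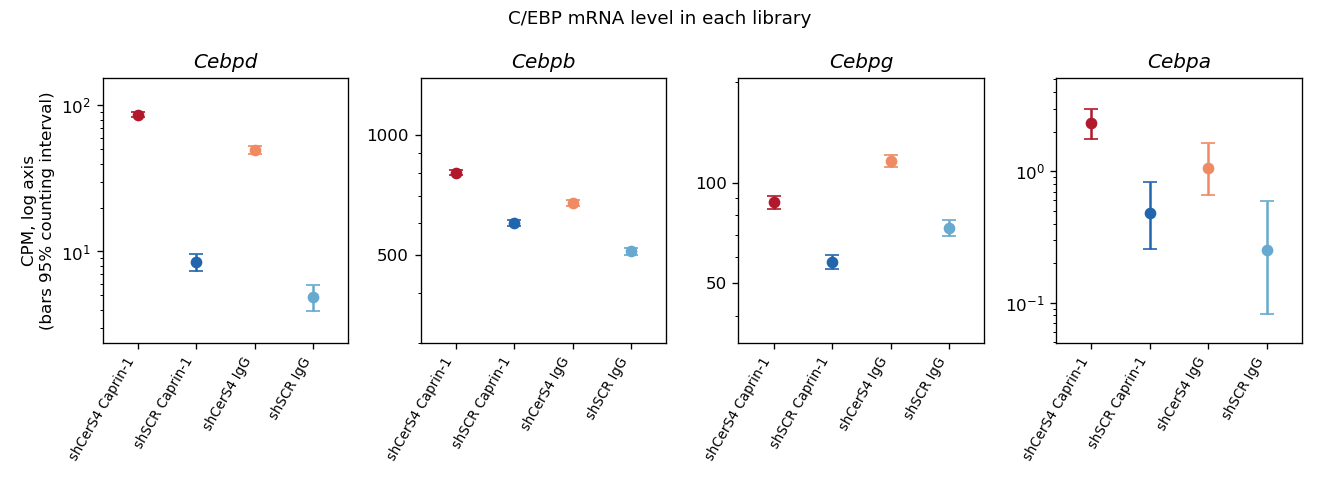
Levels of the 4 C/EBP mRNAs in each library, in CPM on a log axis whose range differs between panels; bars are exact 95% Poisson counting intervals of 1 library each. Cebpd lies at 86.2 and 49.6 CPM in the shCerS4 libraries and at 8.46 and 4.85 CPM in the shSCR libraries, while Cebpb and Cebpg differ by less than 2-fold between genotypes.

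Cebpb was the most abundant of the C/EBP genes that can be compared per length. It stood at 802 CPM in shCerS4 Caprin-1, against 600.1 CPM in shSCR Caprin-1, and at 672 CPM in shCerS4 IgG, against 509.9 CPM in shSCR IgG. Both shCerS4 libraries thus stood above both shSCR libraries. The log2 ratio of shCerS4 over shSCR was 0.42 [0.39, 0.45] with Caprin-1 and 0.40 [0.36, 0.44] with IgG, or 1.34-fold and 1.32-fold. Relative to the median over all compared genes it was 0.27 and 0.30, and 70.8% and 72.1% of compared genes had a lower ratio, so that Cebpb lay within the upper part of the common range. Its 3 transcript entries held identical values and were summed, and the protein forms made from different start codons are not separated by mRNA levels.

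Cebpg differed between genotypes a little more than Cebpb. It stood at 87.4 CPM in shCerS4 Caprin-1, against 58.0 CPM in shSCR Caprin-1, and at 116 CPM in shCerS4 IgG, against 73.3 CPM in shSCR IgG. The order of the libraries differed from that of Cebpb and Cebpd, since each IgG library stood above the Caprin-1 library of the same cells. The log2 ratio of shCerS4 over shSCR was 0.59 [0.50, 0.69] with Caprin-1 and 0.66 [0.57, 0.76] with IgG, or 1.51-fold and 1.58-fold, and relative to all genes 0.45 and 0.56. It did not pass 2-fold in either precipitate.

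Cebpa was near the limit of detection. It had 57 estimated reads in shCerS4 Caprin-1, against 13 in shSCR Caprin-1, and 21 in shCerS4 IgG, against 5 in shSCR IgG. These corresponded to 2.31 and 0.481 CPM with Caprin-1 and to 1.07 and 0.252 CPM with IgG. It was higher in each shCerS4 library than in either shSCR library, but its mean of 1.03 CPM lay under the 5 CPM needed for a comparison across genes. Its log2 ratios were 2.22 [1.38, 3.26] with Caprin-1 and 1.98 [0.64, 3.84] with IgG, and adding 5 reads in place of 0.5 gave 1.92 and 1.39. Cebpe, the granulocyte member of the family, was not analysed here.

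Because Cebpd, Cebpb and Cebpa have no introns, their annotated spans of 2.26, 1.52 and 2.64 kb (GRCm38) equal their transcript lengths and their levels could be compared per kb. Per kb, the level of Cebpb was 13.8 times that of Cebpd in shCerS4 Caprin-1, against 106 times in shSCR Caprin-1. With IgG it was 20.2 times in shCerS4 cells, against 156 times in shSCR cells. The level of Cebpd per kb was 43.5 and 54.2 times that of Cebpa in the shCerS4 Caprin-1 and IgG libraries, and 20.5 and 22.4 times in the shSCR ones. The order Cebpb, Cebpd, Cebpa held in every library, with the distance between Cebpb and Cebpd smaller in both shCerS4 libraries.

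Within each stably expressing population the Caprin-1 library was set against its IgG background, to see whether C/EBP mRNAs held a larger share with Caprin-1. The Cebpd log2 ratio of Caprin-1 over IgG was 0.80 [0.69, 0.91] in shCerS4 cells and 0.80 [0.45, 1.16] in shSCR cells, or 1.74-fold in each. Of all compared genes 96.8% in shCerS4 cells and 95.03% in shSCR cells had a lower ratio. Cebpb stood at 0.26 [0.22, 0.29] in shCerS4 cells and 0.24 [0.20, 0.27] in shSCR cells. Cebpg was on the other side of 0, at −0.41 [−0.49, −0.32] in shCerS4 cells and −0.34 [−0.44, −0.23] in shSCR cells, where the medians of all compared genes were −0.11 and −0.13. None of these 3 genes was past 2-fold in either population. Past 2-fold upward were 0.934% of compared genes in shCerS4 and 1.69% in shSCR cells, and downward 8.02% and 13%. In numbers, 96 genes were higher and 825 lower in shCerS4 cells, and 174 and 1337 in shSCR cells, where trimmed-mean scaling gave 217 and 567 in shCerS4 cells and 499 and 851 in shSCR cells and moved the medians to 0.03 and 0.07. Relative to the median of all compared genes, Cebpd stood at 0.90 in shCerS4 and 0.93 in shSCR cells, Cebpb at 0.36 and 0.37, and Cebpg at −0.30 and −0.21. Cebpa stood at 1.09 [0.37, 1.91] in shCerS4 cells and 0.85 [−0.65, 2.77] in shSCR cells, from the few reads given above, and was not among the compared genes.

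Across genes, the Caprin-1 over IgG ratio was lower for genes with a long genomic span, so each C/EBP gene was set beside genes of like span. For the 1174 compared genes of at most 5 kb the median log2 ratio was 0.26 in shCerS4 and 0.38 in shSCR cells, and for the 5664 genes over 20 kb it was −0.34 and −0.44. Cebpd lay above 91.7% of the other short genes in shCerS4 cells and above 85.3% in shSCR cells. Cebpb lay near the middle of them, above 49.2% and 35.7%. Cebpg, which spans 10.1 kb, lay in the lower part of the 3441 genes between 5 and 20 kb, above 16.7% of them in shCerS4 and 21.2% in shSCR cells. The part of transcript length or of incompletely spliced RNA in these ratios was not tested.

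The Caprin-1 over IgG ratio of the C/EBP genes was then compared between shCerS4 and shSCR cells. The difference of the log2 ratios, shCerS4 minus shSCR, was 0.00 [−0.36, 0.36] for Cebpd, 0.02 [−0.03, 0.07] for Cebpb and −0.07 [−0.21, 0.06] for Cebpg, and for Cebpb it lay below 0, at −0.047, under trimmed-mean scaling. For Cebpa it was 0.24 [−1.35, 1.84]. Each interval included 0, and for Cebpd it left room for a difference of up to 1.28-fold either way at this depth. Over all compared genes the median was 0.04, and 0.632% were past 2-fold upward and 0.35% downward, that is 65 and 36 genes, against 48 and 49 under trimmed-mean scaling.

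**Figure D2:**
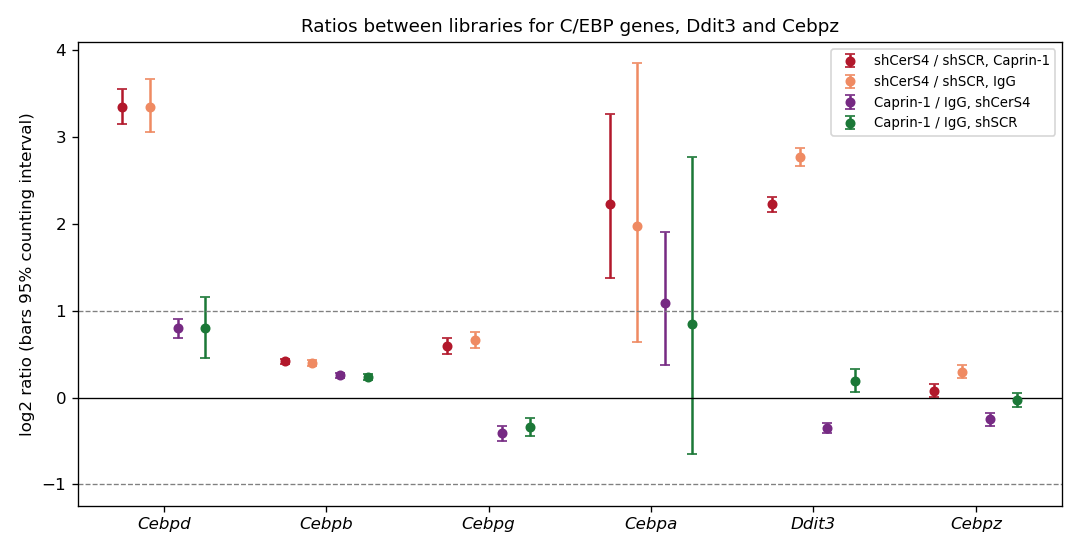
Log2 ratios between pairs of libraries for Cebpd, Cebpb, Cebpg, Cebpa, Ddit3 and Cebpz; bars are 95% counting intervals, dashed lines mark 2-fold. Cebpd has the same ratio of shCerS4 over shSCR, 3.35, with Caprin-1 and with IgG, and Ddit3 has 2.22 with Caprin-1 and 2.77 with IgG.

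Ddit3 encodes CHOP, the C/EBP homologous protein that dimerises with C/EBP factors and is induced by the unfolded protein response. It stood at 217 CPM in shCerS4 Caprin-1, against 46.4 CPM in shSCR Caprin-1, and at 276 CPM in shCerS4 IgG, against 40.6 CPM in shSCR IgG. Both shCerS4 libraries were far above both shSCR libraries, at log2 ratios of 2.22 [2.13, 2.31] and 2.77 [2.66, 2.88]. Unlike those of Cebpd, Cebpb and Cebpg, the interval of the difference of its Caprin-1 over IgG ratios excluded 0, at −0.54 [−0.68, −0.40], which was under 2-fold. Of all compared genes 3.31% had a lower difference, and the share whose interval excluded 0 was not counted. Cebpz carries the C/EBP name but encodes a CCAAT-binding protein of another family. It stood at 123 and 146 CPM in the shCerS4 Caprin-1 and IgG libraries and at 116 and 119 CPM in the shSCR ones. Its log2 ratios of shCerS4 over shSCR were 0.08 and 0.30, the first of which fell below 0 under upper-quartile, trimmed-mean and median-of-ratios scaling. Its annotated span overlaps that of Cebpzos by 2.05 kb, and reads of overlapping genes may be divided with some error where strand was not used.

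The genes whose pattern over the 4 libraries was most like that of a C/EBP gene were found among other genes averaging 20 CPM or more. The measure was the Euclidean distance of log2 levels, each centred on the mean of the gene. For Cebpd, Cebpb and Cebpg 7726 other genes were searched, and for Cebpa 7727. With 4 libraries this is a description of levels alone. For Cebpd they were, from the nearest, Tmc4 (distance 0.38), Cxcl5 (0.60) and Macrod1 (0.61). Tmc4, a transmembrane channel-like gene, stood at 108 CPM in shCerS4 Caprin-1, against 9.92 CPM in shSCR Caprin-1, and at 79.6 CPM in shCerS4 IgG, against 7.46 CPM in shSCR IgG. Cxcl5, a neutrophil chemokine, stood at 350 CPM in shCerS4 Caprin-1, against 28.7 CPM in shSCR Caprin-1, and at 292 CPM in shCerS4 IgG, against 24.1 CPM in shSCR IgG. For Cebpb the nearest genes were Nfkbie (0.02), which encodes an inhibitor of NF-kappaB, Mthfsd (0.03) and Pawr (0.04). For Cebpg they were Rpl34-ps1 (0.04), Dnajc2 (0.04) and Akirin1 (0.05). For Cebpa, whose own profile rests on few reads, they were Lcn2 (0.33), C1ra (0.42) and Gadd45b (0.48).

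**Figure D3:**
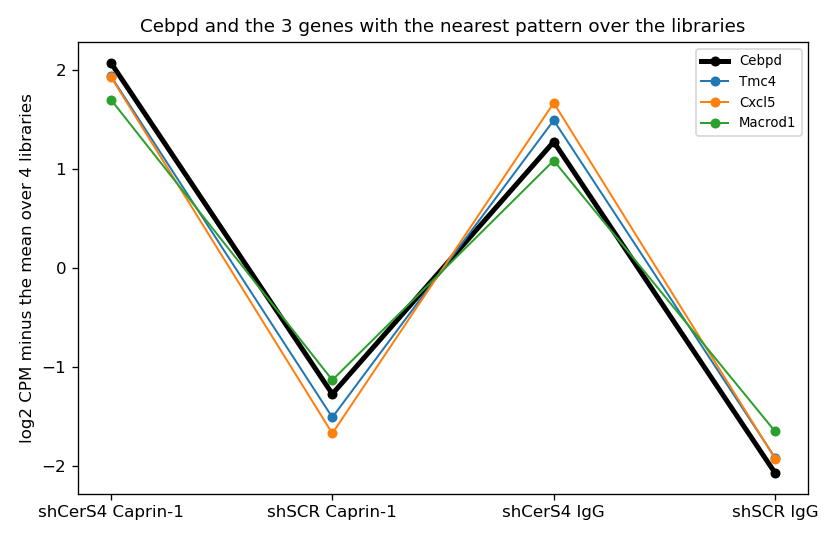
Log2 level minus the mean over the 4 libraries for Cebpd (thick black line) and the 3 genes nearest to it; lines only join the points of a gene. All 4 genes are higher in both shCerS4 libraries than in both shSCR libraries, which follows from choosing them by nearness to Cebpd in these libraries.

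Genes that act on or with C/EBP factors were described in lists written from general knowledge, with earlier results of these data known. List counts and medians set beside those of all compared genes are therefore a description. Among basic leucine zipper factors that can dimerise with C/EBP proteins, 15 of 20 were compared. Past 2-fold in shCerS4 over shSCR, 5 were higher with Caprin-1 and 6 with IgG, beside 6.25% and 5.69% of all compared genes, and none was lower. The list medians were 0.55 and 0.37, beside 0.15 and 0.10 over all compared genes. Atf3, a stress-induced repressor of the ATF family, stood at 92.6 CPM in shCerS4 Caprin-1, against 10.4 CPM in shSCR Caprin-1, and at 105 CPM in shCerS4 IgG, against 12.4 CPM in shSCR IgG. Its log2 ratios were 3.15 [2.97, 3.33] and 3.08 [2.89, 3.28], the largest of the list in both precipitates. Besides Ddit3, the others past 2-fold in both were Fosl2, an AP-1 subunit (1.89 and 1.57), the circadian factor gene Dbp (1.46 and 1.46) and the AP-1 gene Jund (1.19 and 1.15). Atf4, the integrated stress response factor and a partner of C/EBP gamma, had the highest mean CPM of the list over the 4 libraries and stood at 0.07 [0.05, 0.10] with Caprin-1 and 0.27 [0.23, 0.31] with IgG. The Caprin-1 value fell below 0 under upper-quartile, trimmed-mean and median-of-ratios scaling.

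Few of the signalling genes known to lie upstream of Cebpd were past 2-fold, as was the case for all compared genes. Of 22 genes of gp130 and STAT3 signalling 17 were compared, with 1 past 2-fold upward with Caprin-1 (5.88%, beside 6.25% of all compared genes), none with IgG, and none downward in either. The list medians were 0.29 and 0.27. The gene past 2-fold was Osmr, the oncostatin M receptor, at 8.88 CPM in shCerS4 Caprin-1, against 3.66 CPM in shSCR Caprin-1, and at 13.4 CPM in shCerS4 IgG, against 6.71 CPM in shSCR IgG. Its log2 ratio was 1.27 with Caprin-1 and 0.99 with IgG, and its most abundant transcript alone gave 1.696 with IgG. Stat3 itself stood at 0.39 and 0.22, Il6st, which encodes gp130, at 0.83 and 0.38, and Socs3, a feedback inhibitor induced by STAT3, at −0.46 and −0.05. Pim3, with the highest mean CPM of the list, stood at 0.69 and 0.57.

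Of 20 genes of interleukin-1 and Toll-like receptor signalling 13 were compared. Past 2-fold, Caprin-1 had 1 higher and 1 lower, and IgG had 1 higher and 2 lower, with medians of 0.34 and 0.24. Among all compared genes 6.25% were higher and 4.95% lower with Caprin-1, and 5.69% and 5.34% with IgG. The 1 higher gene was a share near these, and the 2 lower with IgG were a larger share. Il1a, which encodes the cytokine interleukin-1 alpha, stood at 33.0 CPM in shCerS4 Caprin-1, against 2.04 CPM in shSCR Caprin-1, and at 41.0 CPM in shCerS4 IgG, against 3.03 CPM in shSCR IgG. The log2 ratios of Il1a were 4.01 [3.63, 4.44] and 3.75 [3.38, 4.16], and it reached the 5 CPM filter through the shCerS4 libraries alone. Cd14, a co-receptor for bacterial lipopolysaccharide, was on the opposite side at −1.18 [−1.34, −1.02] and −1.21 [−1.44, −0.98]. The other gene lower past 2-fold with IgG was Il1r1, an interleukin-1 receptor gene, at −1.06 [−1.19, −0.93], and it stood at −0.54 with Caprin-1. Irak1, a receptor-associated kinase, stood at 0.47 and 0.28, and its most abundant transcript alone gave −0.33 with IgG. Of 11 genes of the glucocorticoid receptor and its induced genes 9 were compared, with medians of 0.46 and 0.38. Nr3c1, the receptor, was the 1 gene past 2-fold with Caprin-1 (1.06) and Per1 with IgG (1.04), and neither passed under trimmed-mean scaling. The most abundant transcript of Nr3c1 alone gave 0.72 with Caprin-1. The induced gene Fkbp5 stood at −0.84 and −0.85.

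Acute phase and inflammatory genes described as C/EBP targets were the list with the most genes past 2-fold. Of 29 listed genes 14 were compared. Past 2-fold, 10 were higher and 1 lower with Caprin-1, and 9 were higher and 1 lower with IgG, beside the 6.25% and 5.69% of all compared genes that were higher. The list medians were 1.33 and 1.32. Nos2 and Ccl20 reached 5 CPM through the shCerS4 libraries alone and so had to differ. Among the 12 genes averaging 5 CPM or more in each genotype, a choice made after seeing the data, 8 were higher and 1 lower with Caprin-1 and 7 and 1 with IgG, with medians of 1.21 and 1.13. Of all genes kept by that choice 5.14% were higher with Caprin-1 and 4.47% with IgG. Cxcl1, a neutrophil chemokine, stood at 290 CPM in shCerS4 Caprin-1, against 16.02 CPM in shSCR Caprin-1, and at 237 CPM in shCerS4 IgG, against 11.8 CPM in shSCR IgG. The log2 ratios of Cxcl1 were 4.17 [4.04, 4.32] and 4.32 [4.14, 4.52].

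The nitric oxide synthase gene Nos2 had 321 estimated reads in shCerS4 Caprin-1, against 17 in shSCR Caprin-1, and 276 in shCerS4 IgG, against 13 in shSCR IgG. Its log2 ratios were 4.33 [3.67, 5.17] and 4.37 [3.62, 5.35]. With its most abundant transcript alone the IgG value was 8.29. Among the other genes of the list, the chemokine genes Cxcl5 and Ccl20 stood at 3.604 and 2.69 with Caprin-1, and at 3.59 and 2.44 with IgG, where the most abundant transcript of Ccl20 alone gave 1.82. Lcn2, the iron-siderophore carrier lipocalin 2, stood at 2.02 and 2.34, and Csf3, the neutrophil growth factor G-CSF, at 1.37 and 1.42. Icam1, an adhesion molecule, was the lower gene, at −1.80 and −1.70. Cp, the copper carrier ceruloplasmin and the gene with the highest mean CPM of the list, stood at 0.56 and 0.16. Under trimmed-mean scaling 8 genes of the list were higher and 1 lower in each precipitate.

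Of the compared genes of the acute phase list 8 had a promoter entry, and 1 of these, Cxcl1, held TTGCNNCAA within 250 bases upstream. Over the compared genes with an entry, 114 of 8292 held it, or 1.37%. The string was also held by 1 of 8 such genes of the glucocorticoid list, Sgk1, which stood at −0.51 with Caprin-1 and −0.87 with IgG. In the mammary list 1 of 11 held it, Bax, at 0.19 and −0.03. Because TTGCNNCAA cannot match the C/EBP palindrome, whether C/EBP sites go with higher levels in shCerS4 cells was not tested. The Cxcl1 match is shown as the one in the acute phase list, and it is not the C/EBP palindrome. It starts 170 bases upstream at chr5:90891065-90891093 (GRCm38.p6, plus strand), with the match, which reads on the opposite strand, in capitals.
Cxcl1: ctttgggactTTGGGGCAAaaagcaaaaa

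Metabolic genes described as C/EBP targets lay on both sides. Of 23 adipogenic and metabolic genes 12 were compared, and past 2-fold there were 2 higher and 2 lower ones with Caprin-1, and 1 higher and 2 lower ones with IgG, beside 6.25% higher and 4.95% lower with Caprin-1 and 5.69% and 5.34% with IgG among all compared genes. The medians, 0.15 and 0.20, were close to those of all compared genes. Gadd45a, a growth arrest gene, stood at 1.23 and 1.498 and the insulin receptor gene Insr at 1.04 and 0.29, while the lipid synthesis genes Fasn (−1.17 and −1.40) and Scd1 (−1.17 and −1.32) were lower. Under trimmed-mean scaling Insr was not past 2-fold. Plin2, which coats lipid droplets and had the highest mean CPM of the list, stood at 0.26 and 0.31.

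Of 22 genes of mammary epithelial differentiation and involution 14 were compared, with medians of 0.20 and 0.18 and 1 past 2-fold upward in each precipitate (7.14%, near the 6.25% and 5.69% of all compared genes). That gene was Esr1, the oestrogen receptor, at 15.6 CPM in shCerS4 Caprin-1, against 6.52 CPM in shSCR Caprin-1, and at 22.1 CPM in shCerS4 IgG, against 10.4 CPM in shSCR IgG. Its log2 ratios were 1.26 and 1.08, and under median-of-ratios scaling the IgG value was not past 2-fold, while its most abundant transcript alone gave 1.65 with Caprin-1 and 2.17 with IgG. Ctsl, a cathepsin of involution and the gene with the highest mean CPM of the list, stood at −0.46 and −0.54.

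Among genes whose products act on C/EBP mRNAs or proteins, all 26 were compared. With Caprin-1, 2 were higher and 1 lower past 2-fold, and with IgG 1 was higher and 1 lower, with medians of −0.13 and −0.01. These shares, 7.69% higher and 3.85% lower with Caprin-1, were near the 6.25% and 4.95% of all compared genes. The Tribbles pseudokinase genes differed among themselves. Trib1 and Trib2 encode proteins that direct C/EBP alpha to degradation, and Trib3 is a stress-induced member of the same family. Trib3 stood at 706 CPM in shCerS4 Caprin-1, against 274 CPM in shSCR Caprin-1, and at 446 CPM in shCerS4 IgG, against 194 CPM in shSCR IgG. Its log2 ratios came to 1.36 and 1.203, whereas Trib2 stood at −1.19 and −1.10 and Trib1 at −0.75 and −0.62. Eif2ak3, the PERK kinase of the unfolded protein response, stood at 1.05 and 0.83, and was not past 2-fold under trimmed-mean scaling. Celf1, an RNA-binding protein described as a regulator of Cebpb translation, stood at 0.08 with Caprin-1 and −0.07 with IgG, and Pcbp2, with the highest mean CPM of the list, at −0.66 and −0.01.

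Of the cell cycle genes linked to growth arrest by C/EBP factors, most did not pass 2-fold, and those that did were lower. The list holds genes that drive division, such as Ccna2, and inhibitors, such as Cdkn1a. Its counts and medians therefore do not describe more or less division. Of 19 listed genes 17 were compared, with 4 lower past 2-fold with Caprin-1, 5 with IgG and none higher, beside 4.95% and 5.34% of all compared genes that were lower. The list medians were −0.44 and −0.35, with 6 genes above the median of all compared genes with Caprin-1 and 7 with IgG. Without E2f2, which reached 5 CPM through the shSCR libraries alone, 4 of 16 were lower in each. Cdkn1a, which encodes the cell cycle inhibitor p21, stood at 7.62 CPM in shCerS4 Caprin-1, against 36.7 CPM in shSCR Caprin-1, and at 7.11 CPM in shCerS4 IgG, against 33.3 CPM in shSCR IgG. The log2 ratios of Cdkn1a were −2.27 [−2.50, −2.04] and −2.22 [−2.50, −1.96]. The S phase cyclin gene Ccna2 stood at −1.31 and −1.32, E2f1 at −1.04 and −0.80, and Ccnd1, with the highest mean CPM of the list, at −0.92 and −0.80. The most abundant transcript of E2f1 alone gave −1.65 and −1.66. Cdk6 stood at −1.75 and −2.06 and lies in a stretch of chromosome 5 taken from Cdk6 to Elapor2. There 23 of 27 compared genes, Cdk6 included, were lower past 2-fold with Caprin-1 and 25 with IgG. The stretch was described with earlier results of these data known, so these counts are no separate evidence.

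**Figure D4:**
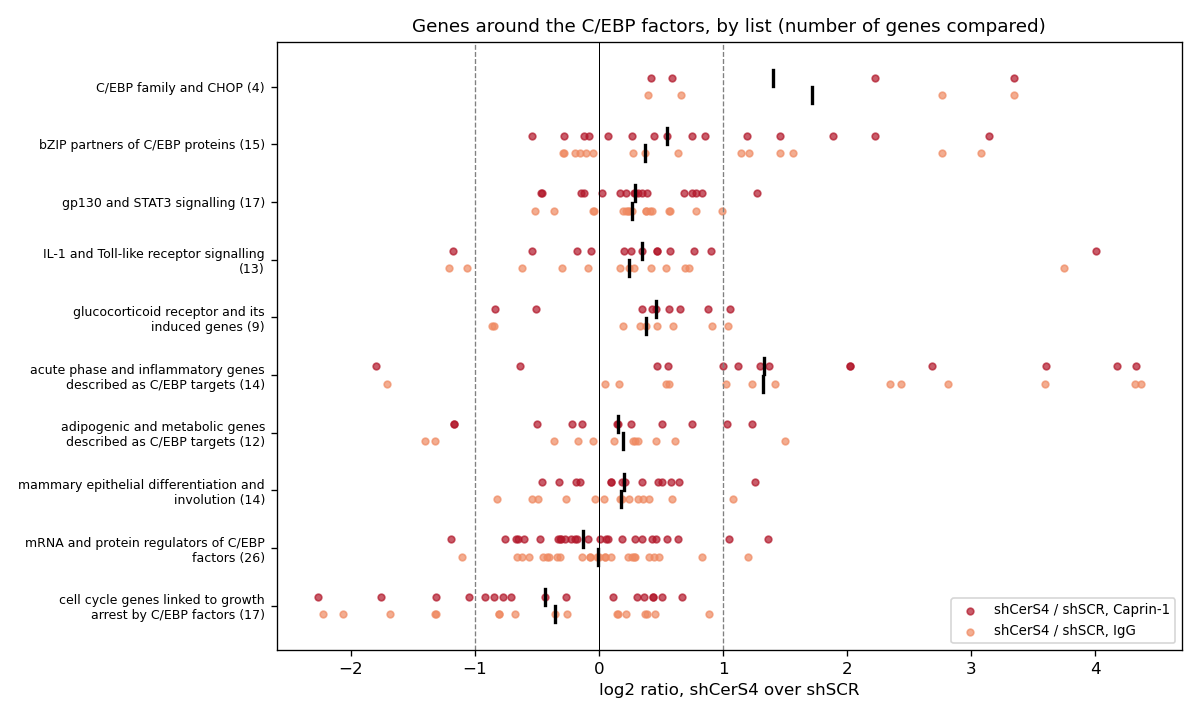
Log2 ratio of shCerS4 over shSCR for each compared gene of each list, dark red with Caprin-1 and orange with IgG; black bars are list medians and dashed lines mark 2-fold. The acute phase list reaches furthest to the right, through Nos2, which passed the 5 CPM filter by its shCerS4 libraries alone. Its medians are 1.33 and 1.32, while the list of the C/EBP family and CHOP, with Cebpd among 4 genes, has 1.41 and 1.71. The cell cycle list has the lowest medians, −0.44 and −0.35.

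The genomic neighbours of the C/EBP genes were described to see whether whole stretches differed. Cebpd lies on chromosome 16 at 15887286 to 15889545 (GRCm38). Of the 3 compared genes on each side none was higher past 2-fold in shCerS4 over shSCR and 1 was lower in both precipitates. That gene, Mcm4 of the replicative helicase, lies 249.9 kb before Cebpd and stood at −1.95 with Caprin-1 and −2.32 with IgG. The nearest genes, Mzt2 before and Spidr after Cebpd, stood at 0.29 and −0.40 with Caprin-1 and at 0.24 and −0.48 with IgG. The annotated span of Spidr overlaps that of Cebpd by 0.322 kb. Spidr stood at 18.8 and 27.8 CPM in the shCerS4 Caprin-1 and IgG libraries and at 24.8 and 38.8 CPM in the shSCR ones. Unlike Cebpd, it was thus lower in the shCerS4 library of each precipitate.

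Cebpb lies on chromosome 2 at 167688915 to 167690432, and its 6 neighbours lay between −0.13 and 0.87 with Caprin-1 and between −0.12 and 0.58 with IgG. Cebpg (35046422 to 35056566) and Cebpa (35119293 to 35121928) lie 62.7 kb apart on chromosome 7 with no compared gene between them. The 6 neighbours of Cebpg lay between −0.74 and 0.26 with Caprin-1 and between −0.60 and 0.54 with IgG, and none of the neighbours of Cebpb or Cebpg was past 2-fold. Cebpg stood above each of its 6 neighbours in both precipitates.

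**Figure D5:**
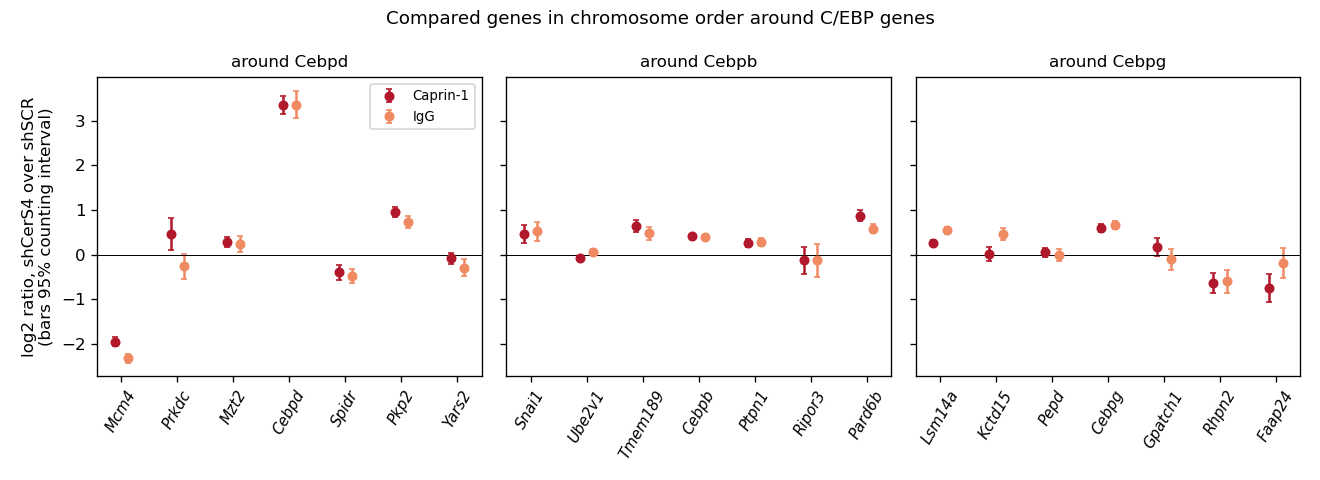
Log2 ratio of shCerS4 over shSCR for Cebpd, Cebpb and Cebpg, each with the 3 compared genes before and after it in chromosome order; dark red is Caprin-1, orange is IgG and bars are 95% counting intervals. Cebpd stands at 3.35 among neighbours that lie between −1.95 and 0.96 with Caprin-1.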

How the data were processed

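RNA was taken from 4T1 cells with Qiazol and made into libraries with the SMARTER mRNA-Seq kit, per the labels' protocols, and the molecule is labelled polyA RNA. STAR, Partek and the mm10 build are named per the submitters' processing notes, and versions, the counting rule and its use of strand are not given in the sources used here. The deposited values are CPM per transcript, with an added constant of 0.0001 CPM per entry that was removed before use.

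Entries of a symbol were summed, giving 12967 symbols from 24393 entries, of which 12957 matched RefSeq (GRCm38.p6) by symbol and 2 by synonym. Read numbers and depth were estimated from the steps between low CPM values: 80.1%, 79.9%, 81.2% and 81.4% of values up to 40 CPM were whole within 0.05 reads in shCerS4 Caprin-1, shSCR Caprin-1, shCerS4 IgG and shSCR IgG. Because this falls short of nearly all values, no count model was used. A log2 ratio was taken of CPM with 0.5 reads added to each library, for genes averaging 5 CPM or more. Intervals are 95% counting intervals from the estimated reads; reads without molecular identifiers are not independent molecules, so they cover counting error only. The 3 reads given as a floor likewise cover counting error only. With 1 library per group there was no test. Levels per kb used RefSeq spans.

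The 4 C/EBP genes and the 10 gene lists were chosen with earlier results of these data known. Named were, from each list, the compared gene with the highest mean CPM and up to 4 genes past 2-fold with the largest ratios of shCerS4 over shSCR with Caprin-1, the genes nearest in pattern (5 for Cebpd, of which the nearest 3 are given, and 3 for each other C/EBP gene) and 3 genomic neighbours on each side. A gene that this rule names is not reported here. Stat3, Il6st, Socs3, Il1r1, Jund, Per1, Fkbp5, Sgk1, Bax, E2f2, Lcn2, Csf3, Icam1, Trib1 and Celf1 were named after their values were seen. Alternatives changed the scaling (trimmed mean of log ratios, median-of-ratios, upper quartile, total without the 50 most abundant genes), the filter (1 CPM, 20 CPM, none), the reads added (5) and the use of the most abundant transcript. The ratio calculation was tested on simulated data. Promoter and site sequences are from RefSeq, GRCm38.p6. Python 3.11.15, numpy 2.4.6, pandas 2.3.3, scipy 1.17.1 and matplotlib 3.10.9 were used.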

Additional observations from a re-analysis of the deposited data

How the results depend on the processing

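No paired analysis was possible because each group has 1 library and the labels give no replicate numbers; for the same reason no library could be left out. No ratio of a C/EBP gene between shCerS4 and shSCR changed direction under the alternatives run, and Cebpd lay between 3.21 and 3.35 with Caprin-1 and between 3.25 and 3.35 with IgG. Under trimmed-mean scaling the shCerS4 over shSCR log2 ratio of Cebpb was 0.28 with Caprin-1 and 0.33 with IgG, its Caprin-1 over IgG ratio 0.39 in shCerS4 and 0.44 in shSCR cells, and their difference −0.047. Under the same scaling Cebpg stood at 0.45 for shCerS4 over shSCR with Caprin-1 and at −0.28 and −0.14 for Caprin-1 over IgG in shCerS4 and shSCR cells, and Cebpd at 0.93 for Caprin-1 over IgG in shCerS4 cells. Median-of-ratios scaling gave Cebpb 0.29, 0.30, 0.40 and 0.41, in the order shCerS4 over shSCR with Caprin-1 and with IgG, then Caprin-1 over IgG in shCerS4 and in shSCR cells, and gave Cebpg 0.46, 0.57, −0.27 and −0.16 in that order. Upper-quartile scaling gave Cebpb 0.31, 0.32, 0.40 and 0.41, and Cebpg 0.49 for shCerS4 over shSCR with Caprin-1 and −0.26 and −0.16 for Caprin-1 over IgG in shCerS4 and shSCR cells. Both put Cebpd at 0.94 for Caprin-1 over IgG in shCerS4 cells. Leaving the 50 most abundant genes out of the totals gave Cebpb 0.38 for shCerS4 over shSCR with Caprin-1, and 0.31 and 0.30 for Caprin-1 over IgG in shCerS4 and shSCR cells. These shifts are common to all genes of a library.

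Counts of genes past 2-fold moved with scaling and filter. For Caprin-1 over IgG, genes higher numbered 217 in shCerS4 and 499 in shSCR cells (851 lower) by trimmed mean, 229 (549 lower) and 448 by median-of-ratios, and 243 (537 lower) and 461 by upper quartile. With a 1 CPM filter, 884 were higher for shCerS4 over shSCR with IgG, 187 and 262 for Caprin-1 over IgG in shCerS4 and shSCR cells, and 230 higher and 177 lower for the difference. With a 20 CPM filter, fewer genes being compared, shCerS4 over shSCR gave 353 higher and 333 lower with Caprin-1 and 297 and 338 with IgG, Caprin-1 over IgG gave 53 higher in shCerS4 and 113 in shSCR cells, and the difference gave 8 and 3. Without a filter, more genes being compared, shCerS4 over shSCR gave 1270 and 927 with Caprin-1 and 1238 and 1181 with IgG, Caprin-1 over IgG gave 356 and 1359 in shCerS4 cells and 418 and 2050 in shSCR cells, and the difference gave 457 and 311. Using a single transcript per gene, the most abundant, 181 and 265 were higher for Caprin-1 over IgG in shCerS4 and shSCR cells, and the difference gave 278 higher and 174 lower; the cause was not tested. Depth limits Cebpa most, with 5 to 57 reads in a library.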
